A study of Homo sapiens with 24 samples.

Results

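The bone morphogenetic protein (BMP) ligands and their response genes were followed in human colorectal cancer cells with and without β-catenin. The set comprised 10 genes out of 58051 gene identifiers in the files. It was chosen by gene name and not by a threshold on any value, and held the ligand genes *BMP2*, *BMP4* and *BMP7*, the receptor gene *BMPR1A*, the pseudoreceptor gene *BAMBI*, the transducer gene *SMAD9*, the inhibitor gene *SMAD6* and the response genes *ID1*, *ID2* and *ID3*. RNA-seq had been performed on the established colorectal cancer cell lines HT29, HCT116 and SW480. For each line, 2 clones with intact *CTNNB1*, the gene of β-catenin (WT), and 2 clones in which CRISPR/Cas9 had deleted exon 7 from both alleles, with a frameshift as the result (KO), were sequenced in rounds A and B, giving 24 libraries and 4 per line and genotype. For HT29, clones 11 and 40 were WT and clones 28 and 38 KO. For HCT116, clones 4 and 6 were WT and 44 and 47 KO, and for SW480 clones 4 and 5 were WT and 17 and 21 KO. The letter after a clone number gives the round, so that KO 28A is the round A library of clone 28. Each clone grew from 1 sorted cell, so that a genotype rests on 2 clones in each line. The reported tests set 4 libraries against 4 without a term for clone, although the 2 rounds of a clone are not separate clones. Only the setting that averages the rounds of a clone compares 2 clones with 2. All clones were grown in the same medium. SW480 KO clones are described in the study as entering senescence on long culture.

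BMP ligands are secreted proteins of the TGF-β family. They bind complexes of type I and type II serine/threonine kinase receptors, one of the type I receptors being BMPR1A, and the receptors phosphorylate SMAD1, SMAD5 and SMAD9. These join SMAD4 and enter the nucleus, where the *ID* genes and *SMAD6* are well-known targets, and SMAD6 in turn dampens the receptor signal. BAMBI resembles a type I receptor but lacks the kinase domain and competes with functional receptors. In the colon, BMP signaling is strongest toward the crypt surface and opposes WNT signaling at the crypt base. HT29 and SW480 cells carry truncating *APC* mutations and HCT116 cells an activating *CTNNB1* mutation, so that WNT signaling is active in all of them.

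The values are normalized counts, which are read counts per gene divided by one size factor per library. Between 22297049 and 29068378 reads per library had been assigned to genes. *CTNNB1* fell in each line, from 5883 to 6113 in WT to 256 to 337 in KO libraries in HT29, from 10512 to 12800.1 to 187 to 255 in HCT116 and from 43114 to 50939.5 to 839 to 1312 in SW480. The WNT target *AXIN2* fell with log2 fold changes of -3.70 in HT29, -5.25 in HCT116 and -4.74 in SW480 (limma, adjusted p = 0.032, 1.2e-06 and 6.7e-09). The KO clones of HT29 differed in *AXIN2*, with 15.1 and 22.5 in KO 28 and 158 and 119 in KO 38, below 590 to 779 in WT libraries. Of 9 colorectal epithelial markers, 6 or 7 stood at 10 or more in each library of every group, and the leukocyte markers summed to at most 24.5 in any library. *CDX1* was at 0 in every library except the HT29 KO clones. *KRT20* was at 1542 to 5791 in WT and 9565 to 21316 in KO libraries of HT29, at 58.2 to 104 and 0 to 0.983 in HCT116 and below 4 throughout SW480. *CDX2* was at 857 to 1333 in WT and 52.7 to 165 in KO libraries of SW480. The part of these differences in the results was not tested. Of the libraries, KO 38B of HT29 stood apart, with 20256 detected gene identifiers against 21719 to 22727 in the other HT29 libraries. KO 47A of HCT116 had 35449 against 22620 to 23323 in the other HCT116 libraries. Results that move without these libraries are given with and without them.

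KO was compared with WT within each line by limma on log2 of the normalized count plus 1, and a gene is called changed where the adjusted p was under 0.05. Log2 fold changes are KO over WT on that scale, so that those of low genes are understated. In HT29, 7 of the 10 genes passed the filter of at least 10 normalized counts in at least 4 libraries, and none of these 7 changed, against 2.08% of all 14921 tested genes that rose and 0.476% that fell. At an unadjusted p under 0.05 limma listed 1 gene, *BMP4*, against 2417 of all 14921 tested genes. DESeq2 called 1, *BMP4*, against 874 of 14914 tested genes that rose and 355 that fell, and edgeR called none. In HCT116 all 10 were tested and 4 fell, namely *BMP4*, *BMP7*, *BAMBI* and *ID2*, while none rose, against 5.93% of tested genes that fell and 8.05% that rose. In SW480 all 10 were tested, *BMP4*, *BMP7*, *BAMBI* and *ID2* fell and *ID1* and *SMAD6* rose, against 22.1% and 26.1% of tested genes. The share of all genes that changed was thus far larger in SW480 than in the other lines. The median absolute log2 fold change of the tested members was 0.59, 1.35 and 1.86 in HT29, HCT116 and SW480, beside 0.31, 0.25 and 0.35 for all tested genes.

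**Figure D1:**
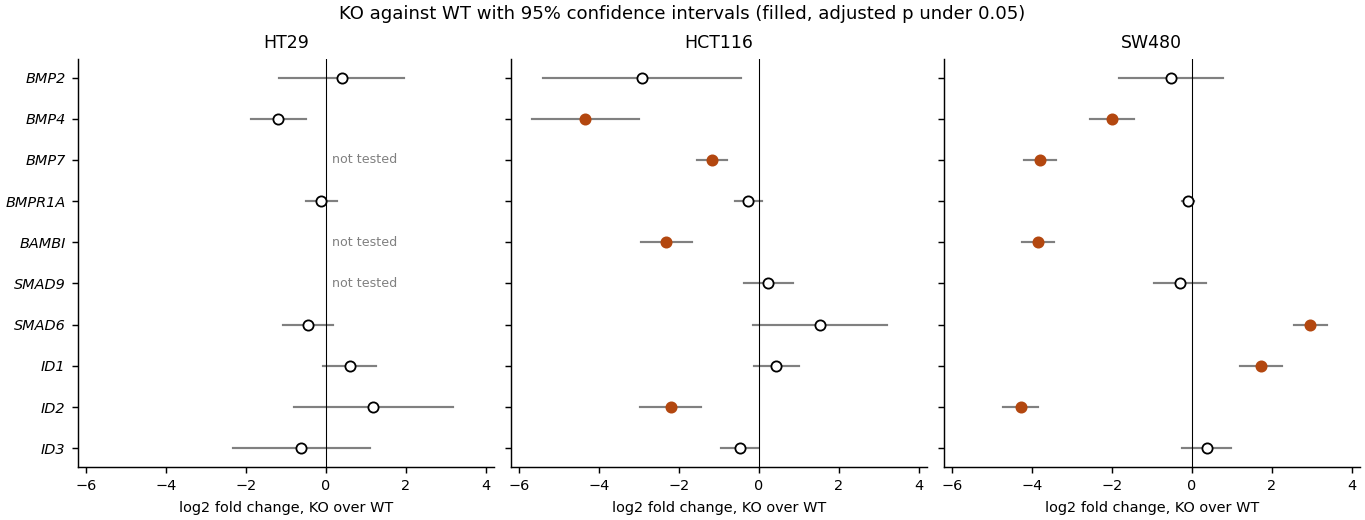
Log2 fold change of each gene, KO over WT, on the x axis, with its 95% confidence interval from limma, for the 3 lines. Filled points passed an adjusted p of 0.05, 4 in HCT116 and 6 in SW480, while none did in HT29, where *BMP7*, *BAMBI* and *SMAD9* were not tested.

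The promoters of the genes that moved are shown because their sequence gives the context of the start sites, from 250 bases before to 50 bases after the start of transcription, as given by RefSeq for GRCh38.p14 and read 5′ to 3′ on the strand of the gene. The table held promoters for 8 of the 10 genes and none for *BMP2* and *BMP7*. Capitals mark the motif GGCGCC, bound by SMAD1 and SMAD5 complexes in some BMP targets, CAGAC with its complement GTCTG, which holds a SMAD-binding core, the palindrome GTCTAGAC and the TCF motif, spelled NNCAAAG with AA, AT, TA or TT as its first letters, each searched on both strands. The palindrome was added after the *SMAD6* sequence had been read. The printed sequences are *BAMBI* at chr10:28677271-28677570 (plus strand), the most upstream of 3 *BMP4* starts at chr14:53955001-53955300 (minus strand), *SMAD6* at chr15:66701986-66702285, *ID1* at chr20:31605039-31605338 and *ID2* at chr2:8681806-8682105 (plus strand).
BAMBI: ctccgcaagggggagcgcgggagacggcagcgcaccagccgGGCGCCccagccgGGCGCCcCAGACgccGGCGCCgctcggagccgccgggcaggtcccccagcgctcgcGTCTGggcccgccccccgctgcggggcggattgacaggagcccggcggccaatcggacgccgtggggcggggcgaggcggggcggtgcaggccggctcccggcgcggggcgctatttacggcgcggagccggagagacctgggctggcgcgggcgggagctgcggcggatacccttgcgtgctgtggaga
BMP4: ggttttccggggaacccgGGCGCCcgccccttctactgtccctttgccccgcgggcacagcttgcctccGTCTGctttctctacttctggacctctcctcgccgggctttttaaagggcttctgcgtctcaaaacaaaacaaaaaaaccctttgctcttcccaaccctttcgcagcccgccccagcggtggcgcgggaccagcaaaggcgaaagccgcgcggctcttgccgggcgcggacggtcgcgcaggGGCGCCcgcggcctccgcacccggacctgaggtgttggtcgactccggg
SMAD6: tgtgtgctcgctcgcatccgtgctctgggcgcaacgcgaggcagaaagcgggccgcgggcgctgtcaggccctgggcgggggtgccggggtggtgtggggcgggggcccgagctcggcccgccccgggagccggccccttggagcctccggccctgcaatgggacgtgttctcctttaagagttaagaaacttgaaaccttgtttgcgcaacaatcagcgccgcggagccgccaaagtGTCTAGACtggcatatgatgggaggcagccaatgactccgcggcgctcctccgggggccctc
ID1: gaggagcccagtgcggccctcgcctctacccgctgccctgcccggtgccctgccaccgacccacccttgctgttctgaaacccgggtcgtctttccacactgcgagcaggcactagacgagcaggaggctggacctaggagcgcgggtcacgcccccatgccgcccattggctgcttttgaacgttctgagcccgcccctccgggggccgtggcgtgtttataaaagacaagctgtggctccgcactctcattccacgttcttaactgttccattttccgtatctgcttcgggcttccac
ID2: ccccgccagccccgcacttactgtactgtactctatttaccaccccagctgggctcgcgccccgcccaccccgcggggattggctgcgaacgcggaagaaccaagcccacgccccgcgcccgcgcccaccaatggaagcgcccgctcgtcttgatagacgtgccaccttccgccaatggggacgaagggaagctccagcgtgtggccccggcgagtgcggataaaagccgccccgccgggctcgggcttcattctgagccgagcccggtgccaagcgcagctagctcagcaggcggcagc

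GGCGCC occurred 3 times in the *BAMBI* promoter, 2 times in the printed *BMP4* promoter and 0 times in those of the other 2 *BMP4* starts, and was held by 19.2% of all 35116 promoters of this length in the table. CAGAC or its complement stood 2 times in *BAMBI* and 1 time in *BMP4*, and was held by 45.3% of promoters. The palindrome stood in the *SMAD6* promoter 12 bases before the start and in 0.202% of promoters. None of the motifs was present in the printed windows of *ID1* and *ID2*, and the TCF motifs, held by 13.8% of promoters, were in none of the 5 printed. The G and C content was 80% in *BAMBI*, 66% in *BMP4*, 68% in *SMAD6*, 62.7% in *ID1* and 69% in *ID2*, against a median of 58.7%. These matches describe letters in the window.

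Among the ligands, *BMP4* (ENSG00000125378, chr14:54416454-54425479, minus strand, GRCh37) had the largest mean share of the summed level per kb of exon in every group. *BMP2* came next in HT29, and *BMP7* came next in HCT116 and SW480. In HT29 the normalized counts of *BMP4* in rounds A and B were 9149.6 and 10282 in WT 11, 10239 and 10415 in WT 40, 5669.8 and 4929 in KO 28 and 6089.6 and 2148 in KO 38. All KO libraries were below all WT libraries, with KO 38B the lowest. The difference did not pass (log2 fold change -1.19 ± 0.31 (SE), adjusted p = 0.088, 95% interval -1.89 to -0.50). Without KO 38B it passed, with a log2 fold change of -0.85 and an adjusted p of 0.014.

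In HCT116 *BMP4* stood at 10661 and 10608 in WT 4, 2235 and 2557 in WT 6, 279 and 295 in KO 44 and 162 and 285 in KO 47. The KO clones were alike, whereas the WT clones differed, with WT 4 above WT 6 (WT 6 over WT 4, log2 fold change -2.15 ± 0.22 (SE), adjusted p = 0.00084). All KO libraries were below all WT libraries, and *BMP4* fell 20.3-fold (log2 fold change -4.34 ± 0.58 (SE), adjusted p = 0.0029). With the 2 rounds of each clone averaged, so that 2 clones stood against 2, the adjusted p was 0.24.

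In SW480 *BMP4* stood at 7621 and 7053 in WT 4, 8325 and 8590.0 in WT 5, 1513 and 1291 in KO 17 and 3028 and 2582 in KO 21. It fell 3.98-fold (log2 fold change -1.99 ± 0.25 (SE), adjusted p = 0.00013), and KO 21 exceeded KO 17 by 1.00 on the log2 scale (adjusted p = 1.2e-06). A lncRNA is annotated on the opposite strand across part of *BMP4*, and the library kit did not keep the strand, so that reads from both cannot be told apart.

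*BMP7* (ENSG00000101144, chr20:55743809-55841697, minus strand) was at the floor in HT29, where no library held more than 8 reads and 7 of 8 held 3 or fewer. In HCT116 it stood at 261 and 264 in WT 4, 347 and 279.9 in WT 6, 145 and 105 in KO 44 and 141 and 116 in KO 47, with all KO below all WT libraries. It fell 2.26-fold (log2 fold change -1.18 ± 0.17 (SE), adjusted p = 0.0011). In SW480 *BMP7* stood at 8195 and 8539 in WT 4, 8101 and 8149.6 in WT 5, 429.9 and 487 in KO 17 and 786 and 739 in KO 21. The fall was 13.9-fold there (log2 fold change -3.80 ± 0.18 (SE), adjusted p = 1.3e-07), and the WT libraries lay within 8101 to 8539. *BMP7-AS1*, an antisense lncRNA gene, overlaps the locus.

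*BMP2* (ENSG00000125845, chr20:6748333-6760893, plus strand) did not pass in any line and was low in HCT116 and SW480. In HT29 it stood at 596 and 427 in WT 11, 77.1 and 75.2 in WT 40, 328 and 166 in KO 28 and 290.3 and 276 in KO 38, so that the WT clones lay on either side of the KO clones. The difference of WT 40 from WT 11 was -2.71 on the log2 scale (adjusted p = 0.0024), and the KO against WT difference was 0.39 with an adjusted p of 0.80. In HCT116 *BMP2* stood at 32.1 and 38.1 in WT 4, 51.7 and 25.7 in WT 6, 0 and 0 in KO 44 and 20.3 and 24.7 in KO 47. No read was found in either KO 44 library, which allows up to 3 reads each, and the fitted difference (log2 fold change -2.92 ± 1.10 (SE), adjusted p = 0.11) therefore depended on the pseudocount. Without KO 47B it passed, with an adjusted p of 0.037. In SW480 *BMP2* stood at 18.2 and 14.7 in WT 4, 114 and 68.5 in WT 5, 24.5 and 31.2 in KO 17 and 27.1 and 24 in KO 21, with the KO libraries between the WT clones (log2 fold change -0.52 ± 0.58 (SE), adjusted p = 0.49).

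**Figure D2:**
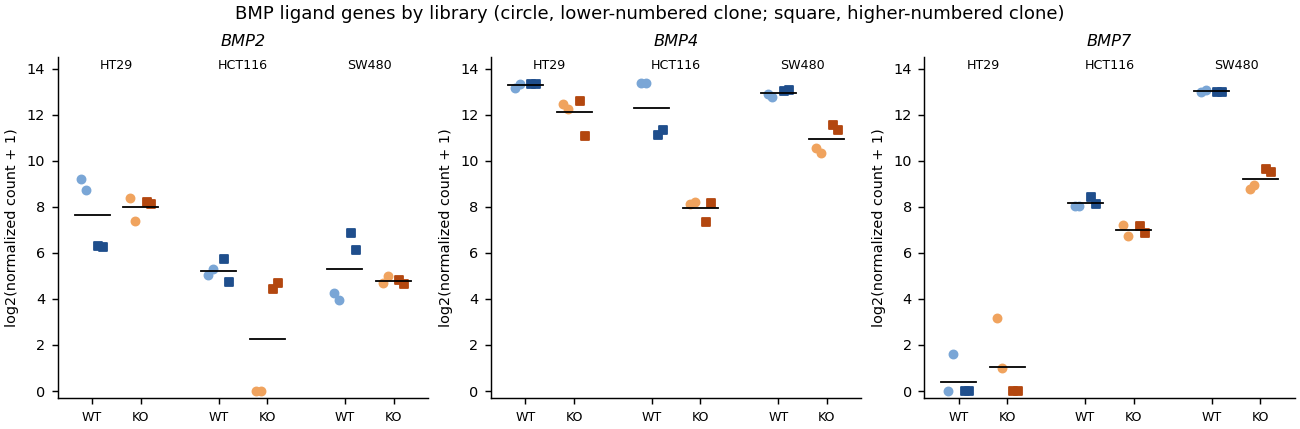
Normalized count of the ligand genes on a log2 scale, log2(count + 1), for each of the 24 libraries by line and genotype. Points are libraries, circles and squares the 2 clones of a group, and lines the means. *BMP4* and *BMP7* of SW480 WT clones lie at 12.8 to 13.1 and fall in the KO clones, whereas *BMP2* lies between the clones in HT29 and SW480.

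Summed per kb of exon over *BMP2*, *BMP4* and *BMP7*, the ligand level averaged 3319.8 ± 139 in the HT29 WT and 1596 ± 576 in the HT29 KO libraries (normalized counts per kb, mean ± SD, n = 4). In HCT116 it was 2168 ± 1531 and 109 ± 16.8, and in SW480 4086 ± 204 and 799.6 ± 301. The KO mean was 48.1%, 5.02% and 19.6% of the WT mean. *BMP4* made up 94.6 to 99.4% of this sum in HT29 WT, 90.2 to 98.4% in HCT116 WT and 59.1 to 64.6% in SW480 WT libraries. In SW480 its share was 80.9 to 86.5% in KO libraries, where *BMP7* had the larger fall, and in HCT116 KO libraries it was 62.2 to 83.2%.

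The receptor gene *BMPR1A* (ENSG00000107779, chr10:88516353-88692582, plus strand) was measured in every library, between 792 and 1743 normalized counts, and did not pass in any line. Its log2 fold change was -0.12 (95% interval -0.50 to 0.26) in HT29, -0.27 (95% interval -0.60 to 0.07) in HCT116 and -0.09 (95% interval -0.24 to 0.06) in SW480. *SMAD9* (ENSG00000120693, chr13:37418968-37495024, minus strand), which encodes a transducer of the BMP receptors, was near the floor in HT29, with at most 10 reads, and between 44.7 and 98.5 in HCT116 and 9.60 and 20.2 in SW480, where its groups overlapped and it did not pass.

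*BAMBI* (ENSG00000095739, chr10:28966439-28971861, plus strand) was the pseudoreceptor gene of the set. In HT29 it was not tested, with no read in 3 of 4 WT libraries and 1 read in WT 11B. The KO 28 libraries held 4 and 2 reads, whereas KO 38 held 90 and 122, that is 85.4 and 158 normalized counts. *BAMBI* was thus far higher in KO 38 than in KO 28, where it was close to the floor of 3 reads. In HCT116 it stood at 309 and 316 in WT 4, 521 and 536 in WT 6, 59.9 and 54.6 in KO 44 and 109 and 119.9 in KO 47 and fell 4.97-fold (log2 fold change -2.31 ± 0.29 (SE), adjusted p = 0.0005). In SW480 it stood at 7383 and 6973 in WT 4, 7515 and 6700.1 in WT 5, 372 and 391 in KO 17 and 642 and 638 in KO 21 and fell 14.4-fold (log2 fold change -3.85 ± 0.18 (SE), adjusted p = 1.3e-07). In both lines all KO libraries were below all WT libraries.

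*SMAD6* (ENSG00000137834, chr15:66994574-67075187, plus strand), the gene of an inhibitory SMAD and itself a BMP target, differed among the lines. In HT29 it stood at 1862 and 1754 in WT 11, 2043 and 2178 in WT 40, 1946 and 2091 in KO 28 and 1059.5 and 935 in KO 38, so that KO 28 was at the WT level and KO 38 below it. The difference of KO 38 from KO 28 was -1.02 on the log2 scale (adjusted p = 0.0065), and the KO against WT difference did not pass (log2 fold change -0.46 ± 0.28 (SE), adjusted p = 0.44). In HCT116 it stood at 78.9 and 59.4 in WT 4, 61.9 and 57.1 in WT 6, 502 and 539.8 in KO 44 and 78.1 and 55.2 in KO 47. The KO 44 libraries were far above WT, whereas of the KO 47 libraries one lay within the WT range and one just below it. The difference of KO 47 from KO 44 was -2.97 on the log2 scale (adjusted p = 9.4e-05). The line as a whole did not pass (log2 fold change 1.52 ± 0.74 (SE), adjusted p = 0.21), while DESeq2 and edgeR gave adjusted p of 0.027 and 0.046.

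In SW480 *SMAD6* stood at 62.7 and 102 in WT 4, 90.7 and 87.1 in WT 5, 581 and 539 in KO 17 and 812 and 773 in KO 21. Every KO library was above every WT library, and *SMAD6* rose 7.82-fold (log2 fold change 2.97 ± 0.18 (SE), adjusted p = 5.4e-07). An annotated lncRNA gene overlaps it on the same strand.

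*ID1* (ENSG00000125968, chr20:30193086-30194318, plus strand) encodes a helix-loop-helix protein without a DNA-binding domain that blocks basic helix-loop-helix factors. In HT29 it stood at 2688 and 2496 in WT 11, 4059 and 3913 in WT 40, 4021 and 3735 in KO 28 and 4252 and 8527 in KO 38. The highest value was that of KO 38B, the groups overlapped, and the difference did not pass (log2 fold change 0.59 ± 0.29 (SE), adjusted p = 0.36). In HCT116 it stood at 10458 and 7244 in WT 4, 6469.9 and 4726 in WT 6, 12669 and 10124 in KO 44 and 9164 and 6478 in KO 47. Round A was higher than round B in each clone, and the groups overlapped (log2 fold change 0.43 ± 0.25 (SE), adjusted p = 0.29). In SW480 *ID1* stood at 124 and 99.2 in WT 4, 131 and 109 in WT 5, 523 and 539 in KO 17 and 284 and 271 in KO 21. All KO libraries were above all WT libraries, and it rose 3.31-fold (log2 fold change 1.73 ± 0.24 (SE), adjusted p = 0.00019), with a difference of KO 21 from KO 17 of -0.94 on the log2 scale (adjusted p = 0.00033).

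*ID2* (ENSG00000115738, chr2:8818975-8824591, plus strand) belongs to the same family. In HT29 it stood at 1798 and 1387 in WT 11, 218 and 153 in WT 40, 739 and 551 in KO 28 and 1952 and 2811 in KO 38. The difference of WT 40 from WT 11 was -3.10 on the log2 scale (adjusted p = 0.00059) and KO 38 was above KO 28 by 1.87 (adjusted p = 0.0044), so that the KO and WT libraries overlapped (log2 fold change 1.18 ± 0.88 (SE), adjusted p = 0.52). In HCT116 it stood at 3917 and 3993 in WT 4, 4774 and 4235 in WT 6, 664 and 492 in KO 44 and 1349.8 and 1582 in KO 47. All KO libraries were below WT, *ID2* fell 4.61-fold (log2 fold change -2.20 ± 0.34 (SE), adjusted p = 0.0033), and KO 47 was above KO 44 by 1.35 (adjusted p = 0.00075). With the rounds of a clone averaged the adjusted p was 0.20. In SW480 it stood at 8919 and 8879 in WT 4, 8855 and 8546 in WT 5, 360.2 and 338 in KO 17 and 697 and 491 in KO 21, and fell 19.4-fold (log2 fold change -4.28 ± 0.19 (SE), adjusted p = 1.2e-07). *ID2-AS1* lies antisense to the gene.

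*ID3* (ENSG00000117318, chr1:23884417-23885992, minus strand), the remaining member of the family here, did not pass in any line. It was near the floor in HT29, with 1 to 17 reads, and between 15.2 and 43.1 in SW480, whereas HCT116 libraries held 1088 to 2612. In HCT116 the groups overlapped (log2 fold change -0.48 ± 0.21 (SE), adjusted p = 0.15). Without WT 6B the adjusted p was 0.029.

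**Figure D3:**
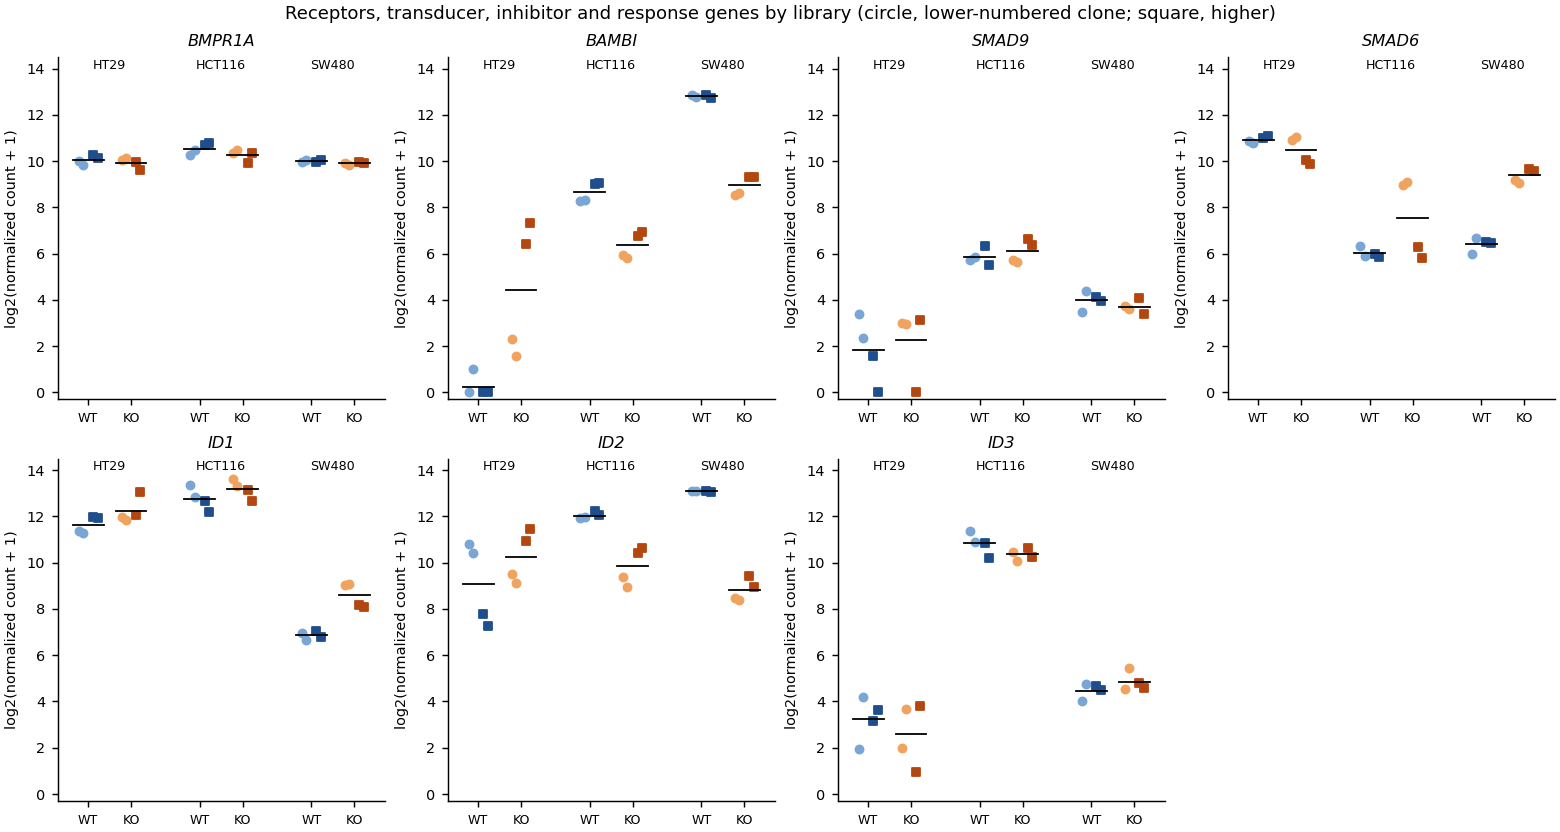
Normalized count of the receptor, pseudoreceptor, transducer, inhibitor and response genes, log2(count + 1), by library, line and genotype. Circles and squares are the 2 clones of a group and lines the means. In SW480 *ID1* and *SMAD6* rise while *ID2* and *BAMBI* fall, and in HCT116 the KO clones split for *SMAD6*.

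In WT clones *ID1* was highest in HCT116 (7225 ± 2399 normalized counts, SD, n = 4), then HT29 (3289 ± 811), and lowest in SW480 (116 ± 14.6). The libraries of these lines did not overlap. For *ID2* the order was SW480 (8799.8 ± 171), HCT116 (4229.9 ± 388) and HT29 (889 ± 830.0), again without overlap. *SMAD6* was highest in HT29 (1959 ± 189), whereas SW480 (85.6 ± 16.6) and HCT116 (64.3 ± 9.91) overlapped. *BMP4* of HT29 (10021 ± 586) and SW480 (7897 ± 696) differed by more than their spread, and HCT116 (6515 ± 4758) spanned both. *BAMBI* and *BMP7* were highest in SW480, intermediate in HCT116 and at the floor in HT29.

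Not overlapping between KO and WT libraries were 1 of 7 tested members in HT29, 5 of 10 in HCT116 and 6 of 10 in SW480, against 13.0%, 20.5% and 46.2% of all tested genes. Between KO clones, with rounds as the only error, 2 of 7 members differed by more than 1 on the log2 scale at an adjusted p under 0.05 in HT29 (*ID2* and *SMAD6*), 3 of 10 in HCT116 (*BMP2*, *ID2* and *SMAD6*) and none in SW480, against 12.5%, 3.28% and 4.61% of tested genes. In SW480 5 members had an adjusted p under 0.05 between KO clones but differed by at most 1.00. At that adjusted p, 2501 of 16325 tested genes were higher in KO 21 than in KO 17 and 2068 were lower. Between WT clones it was 2 of 7 in HT29 (*BMP2* and *ID2*), 1 of 10 in HCT116 (*BMP4*) and 1 of 10 in SW480 (*BMP2*), against 7.58%, 1.44% and 1.97%.

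Whether the KO effect differed between lines was tested over all 24 libraries. Between HCT116 and HT29, 2 of 7 members tested differed, against 7.82% of all tested genes. These were *BMP4* (difference of log2 fold changes -3.15 ± 0.61, SE, adjusted p = 0.0021) and *ID2* (-3.39 ± 0.88, adjusted p = 0.021), and both were more negative in HCT116. Between SW480 and HT29, 2 of 7 differed, against 14.1%, namely *ID2* (-5.46 ± 0.88, adjusted p = 0.00016) and *SMAD6* (3.43 ± 0.71, adjusted p = 0.0018). Between SW480 and HCT116, 3 of 10 differed, against 12.2%. *BMP4* fell further in HCT116 (difference 2.35 ± 0.61, adjusted p = 0.012), *BMP7* further in SW480 (-2.62 ± 0.68, adjusted p = 0.012), and *ID1* rose further in SW480 (1.30 ± 0.41, adjusted p = 0.038). The *ID1* difference had an adjusted p under 0.05 in 8 of 20 alternatives, and 0.062 without KO 47A. Without KO 38B the *ID1* effect also differed between SW480 and HT29 (1.41, adjusted p = 0.012), and without KO 47A the *SMAD6* effect between HCT116 and HT29 (2.40, adjusted p = 0.035). The 3 comparisons share libraries, and none of these calls held when the rounds of a clone were averaged.

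Ligand and response genes were set side by side by clone, without a test of one against the other. For SW480, on the log2 scale, differences from the WT mean in KO 17 and KO 21 were -2.49 and -1.49 for *BMP4* and -4.17 and -3.43 for *BMP7*. In the same clones they were -4.65 and -3.91 for *ID2*, 2.72 and 3.22 for *SMAD6* and 2.20 and 1.26 for *ID1*. *ID2* was thus below WT with the ligand genes, whereas *ID1* and *SMAD6* were above it and *ID3* did not pass. KO 21 had more *BMP4*, *BMP7* and *ID2* and less *ID1* than KO 17, each at an adjusted p under 0.05, whereas *SMAD6* differed by 0.50 with an adjusted p of 0.0505.

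In HCT116 KO 44 and KO 47, the log2 differences from the WT mean were -4.13 and -4.55 for *BMP4*, -1.21 and -1.15 for *BMP7* and -2.88 and -1.53 for *ID2*. *SMAD6* was 3.01 above the WT mean in KO 44 and 0.04 above it in KO 47. The summed ligand level was 117 and 115 per kb in KO 44 and 84 and 120.3 per kb in KO 47. For *ID1* the differences were 0.71 and 0.15 and for *ID3* -0.57 and -0.39. The WT clones of HCT116 differed in *BMP4*, with summed ligand levels of 3501 and 3486 per kb in WT 4 and 800.4 and 885 in WT 6. Their *SMAD6*, *ID1* and *ID2* values, given above, did not differ past the threshold.

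In HT29 KO 28 and KO 38, the log2 differences were -0.92 and -1.47 for *BMP4*, 0.27 and 0.91 for *ID1*, 0.25 and 2.12 for *ID2* and 0.05 and -0.97 for *SMAD6*. Fibroblast markers summed to 13.2 to 23.0 in HT29 WT and 109 to 1210 in KO libraries, of which *LUM* alone gave 82.5 to 1125. *COL1A1* was at 12.2 to 22.5 in WT and 26.2 to 85.4 in KO libraries, also without overlap, while *DCN* was at 0 and *PDGFRA* below 1 in every HT29 library. The same list summed to 287 to 439 in WT and 324 to 386 in KO libraries of HCT116. In SW480 the sums were 151 to 399 and 135 to 202. The part of the fibroblast markers in the HT29 values was not tested.

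**Figure D4:**
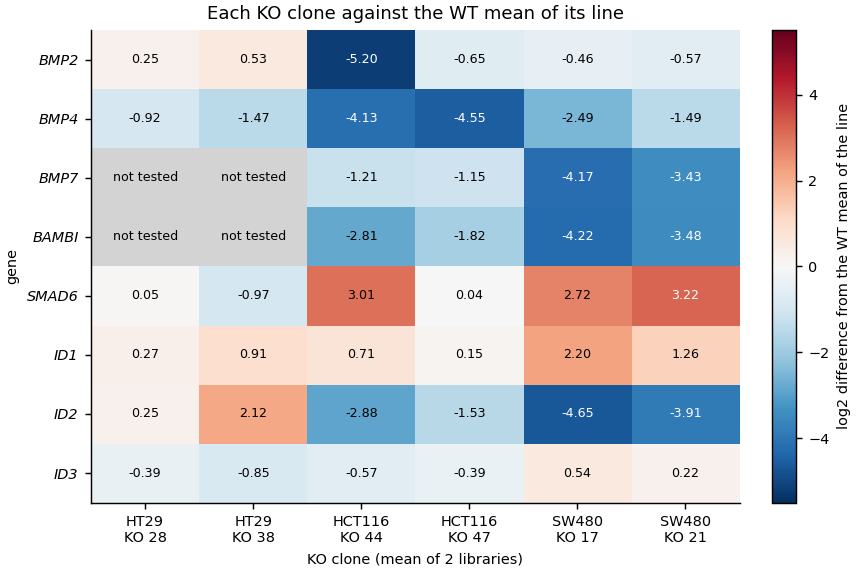
Log2 difference of each KO clone, as the mean of 2 libraries, from the WT mean of its line, for ligand genes, *BAMBI*, *SMAD6* and *ID* genes. Blue is below and red above WT, grey not tested. *BMP4* is below WT in all 6 KO clones, whereas *SMAD6* is above WT by more than 2.5 in KO 44 and both SW480 clones alone.

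Of 58 further genes of the pathway, listed by role, 27 were tested in HT29, 32 in HCT116 and 41 in SW480. In HT29 2 rose and 1 fell, against 2.08% and 0.476% of all tested genes. In HCT116 3 rose and 4 fell, against 8.05% and 5.93%, and in SW480 16 rose and 14 fell, against 26.1% and 22.1%. In SW480 *FST*, *SOST*, *BMPER*, *CHRDL1*, *SOSTDC1* and *ACVRL1* passed the filter only through the KO libraries and could be counted only by rising. *ACVRL1* was at most 2.90 in WT and 35.5 to 73.4 in KO libraries. *BMP6* passed only through the WT libraries, so that these counts are partly set by the filter. The median log2 fold change over the tested genes was -0.14, -0.09 and 0.08. *SMAD4* itself was at 165 to 319 in HT29 and 1342 to 1560 in HCT116 but at 21.2 to 42.2 in SW480, and did not pass in any line.

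The secreted antagonists bind BMP ligands outside the cell. In SW480 7 of 10 tested rose and 1 fell, against 26.1% and 22.1% of all tested genes. Of those that rose, *FST*, *SOST*, *BMPER*, *CHRDL1* and *SOSTDC1* passed the filter only through the KO libraries. Their WT means were 0, 0, 0, 0.716 and 0.731, so that they could enter this count only by rising. The share that rose is thus partly set by the filter. *NBL1* rose by 0.28 on the log2 scale. *NOG*, which encodes noggin, rose from 47.2 ± 5.43 to 495 ± 95 (log2 fold change 3.35, adjusted p = 8.4e-08). *CHRDL1*, with at most 1 read in each WT library, rose to 35.5 to 229 in KO libraries (adjusted p = 3.1e-05), and its fold depends on the pseudocount. In HT29 the ligand antagonist gene *CHRD* rose from 9.01 ± 6.51 to 103 ± 22.8 (log2 fold change 3.64, adjusted p = 0.011) and *SOSTDC1* fell from 211 ± 93.5 to 11 ± 7.59 (log2 fold change -4.35, adjusted p = 0.0087). Neither HT29 gene passed with the rounds of a clone averaged, a setting that called 0 of all 14921 tested genes in HT29. In HCT116 none of 4 tested passed.

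Of the other response genes, in SW480 6 of 10 tested fell and 1 rose, against 22.1% and 26.1% of all tested genes. *MSX1* fell from 18028 ± 1638 to 746 ± 146 (log2 fold change -4.61, adjusted p = 3.3e-09), *DLX3* from 153 ± 13.6 to 45 ± 10.4 (log2 fold change -1.76, adjusted p = 2.6e-05) and *RUNX2*, a gene of osteoblast differentiation, from 6376 ± 492 to 1323 ± 60.7 (log2 fold change -2.27, adjusted p = 5.6e-09). In HCT116 3 of 7 fell and none rose, against 5.93% and 8.05% of all tested genes, among them *DLX2* from 163 ± 31.9 to 30.1 ± 5.4 (log2 fold change -2.40, adjusted p = 4.3e-05) and *MSX2* from 1546 ± 749.5 to 390.3 ± 216 (log2 fold change -2.03, adjusted p = 0.027). In HT29 *JUNB* rose from 1069.9 ± 30.5 to 2686 ± 514 (log2 fold change 1.31, adjusted p = 0.0044). With the rounds of a clone averaged, *JUNB* in HT29 and *MSX2* in HCT116 did not pass. In that setting no gene of HT29 passed.

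Of 7 intracellular inhibitors tested in HCT116, 3 rose and 1 fell, against 8.05% and 5.93% of all tested genes. *SMURF1*, *SMURF2* and *PMEPA1* rose with log2 fold changes of 0.65, 0.90 and 1.37 (adjusted p = 0.0083, 0.00085 and 0.041), of which only *SMURF2* passed with the rounds of a clone averaged, and *PMEPA1* did not pass without KO 47A. *PMEPA1* was low there, at 3.67 to 12.4 in WT and 15.7 to 18.2 in KO libraries, and passed the filter only through the KO libraries. *SMAD7*, the partner of *SMAD6* in feedback, fell in HCT116 from 243 ± 49.2 to 49.7 ± 21.5 (log2 fold change -2.35, adjusted p = 0.0005). In SW480 *SMAD7* fell while *SMAD6* rose, with a log2 fold change of *SMAD7* of -1.72 (adjusted p = 3.5e-07), and *PMEPA1* rose from 599 ± 83.9 to 3297 ± 506 (log2 fold change 2.46, adjusted p = 1.8e-07). Of 3 remaining ligand genes tested in SW480, 1 fell and 1 rose, against 22.1% and 26.1% of all tested genes. *BMP6* fell from 114 ± 14 to 3.54 ± 2.42 (log2 fold change -4.83, adjusted p = 3.1e-06) and *BMP8B* rose from 169 ± 11.4 to 364 ± 58.6 (log2 fold change 1.09, adjusted p = 5.9e-05). *BMP6* was at 0.934 to 6.72 in KO libraries, passed the filter only through the WT libraries and could be counted only by falling. Of 3 coreceptor genes tested in SW480, 2 rose and 1 fell, against 26.1% and 22.1% of all tested genes. *ENG* rose from 28.6 ± 8.55 to 98 ± 24 (log2 fold change 1.76, adjusted p = 0.00022) and *RGMB* from 174 ± 25.5 to 233 ± 21.2 (log2 fold change 0.43, adjusted p = 0.024). *RGMA* fell from 34.9 ± 7.29 to 12.4 ± 4.52 (log2 fold change -1.47, adjusted p = 0.0027). The endothelial marker *VWF* was at 9.65 to 27.4 in SW480 WT and 114 to 234 in KO libraries and *CDH5* at or below 1.88, and their part in the *ENG* value was not tested.

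**Figure D5:**
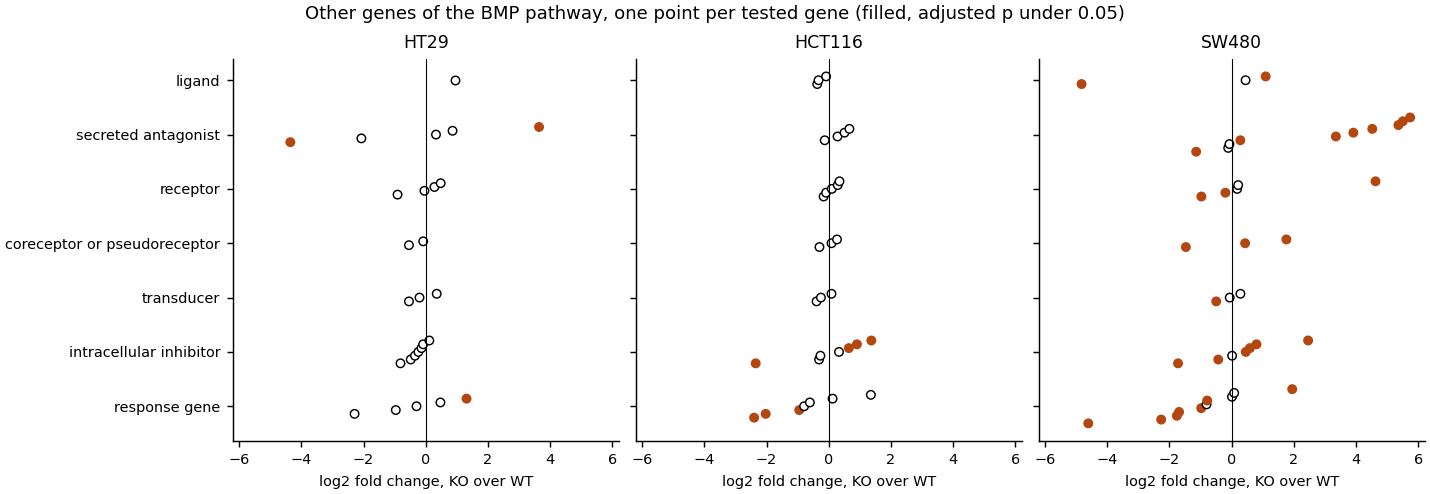
Log2 fold change, KO over WT, of each tested pathway gene outside the set, by role and line. Filled points passed an adjusted p of 0.05. In SW480 7 of 10 secreted antagonists are filled to the right and 6 of 10 response genes to the left, whereas 3 genes in HT29 and 7 in HCT116 are filled. Of these antagonists, *FST*, *SOST*, *BMPER*, *CHRDL1* and *SOSTDC1* passed the filter only through the KO libraries.

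Over the 24 libraries, with each line centred on its own mean, the gene most like *BMP4* among the 13027 others tested in all 3 lines was *RNF43* (Pearson r = 0.917), followed by *CYB5B* (0.909), *ADAM19* (0.907), *EHF* (0.905) and *RHOU* (0.884). *ID2* ranked 731 (r = 0.521) and *ID1* 12054 (r = -0.518). For *ID1* the leading genes were *CARD19* (0.887), *NUP62CL* (0.875), *PRSS22* (0.870), *LINC00460* (0.868) and *AMN1* (0.867). *SMAD6* ranked 664 (r = 0.635), *ID3* 4262 (r = 0.203) and *ID2* 12548 (r = -0.658). The libraries come from 12 clones and share the genotype, so that these correlations are descriptions.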

How the data were processed

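RNA of 24 libraries from 12 clones was analysed. Per the labels and the methods of the study, the authors prepared unstranded TruSeq v2 libraries, sequenced pairs of reads on a NovaSeq instrument, aligned them to GRCh37 with STAR 2.7.5b and counted them with featureCounts 2.0.1. The values deposited by the authors are signal, that is, counts divided by one DESeq2 size factor per library (DESeq2 2.11.40.6). When each value was divided by what 1 read is worth in its library, 100% came out whole within 0.001 reads, and the alternatives for counts used these reads. The deposited tables of fold changes and p-values were not used.

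Because the values are normalized, limma 3.58.1 (R 4.3.3) with trend and robust variances was run on log2(value + 1), over genes that reached 10 in 4 or more libraries of the line, with Benjamini-Hochberg adjustment. Differences between lines used all 24 libraries and genes passing that filter in both lines. Clones were compared with rounds as the error. The study describes the rounds as independent biological replicates. Both rounds of a pair come from the same clone, and the reported fit had no term for clone. After genotype, the rounds of a clone correlated at 0.483 in HT29, 0.353 in HCT116 and 0.522 in SW480. P-values over libraries thus treat the rounds as if they were separate clones and are too small as a measure of the spread between clones.

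Pairing by round was checked from round A minus round B of each clone, correlated over genes between clones. The correlations ran from 0.182 to 0.374 in HCT116, where 6 of 6 pairs were over 0.1 and rounds paired the libraries, and from -0.309 to 0.424 in HT29 (2 of 6) and -0.041 to 0.127 in SW480 (1 of 6), where they did not.

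Gene coordinates come from GENCODE v44lift37 on GRCh37, which named 55604 of 58051 identifiers, and promoters from RefSeq on GRCh38.p14. The members and lists were chosen with earlier results of these data known. All 10 members are described. Of the other pathway genes, up to 8 per line were named, those with the largest change among genes with an adjusted p under 0.05, an absolute log2 fold change over 1 and a mean of at least 50, and for *BMP4* and *ID1* the 5 genes with the highest Pearson r. *VWF*, *CDH5*, *LUM*, *COL1A1*, *DCN*, *PDGFRA*, *CDX1*, *CDX2*, *KRT20*, *SMAD4*, *BMP8B*, *SMURF1*, *SMURF2*, *PMEPA1* of HCT116 and *SMAD7* of SW480 were named after their values were seen. The same holds for *FST*, *SOST*, *BMPER*, *NBL1*, *SOSTDC1*, *ACVRL1*, *RGMA* and *RGMB* of SW480. One endothelial marker, *PECAM1*, had no match. Alternatives were edgeR 4.0.16 with TMM, DESeq2 1.42.0, limma with TMM, pseudocounts of 0.1 and 5, no filter, the mean of a clone, clone as a random effect, round as a block, and each library and clone left out. Leaving out libraries for the differences between lines was added after the data had been seen. The limma test of genotype was run on simulated reads of independent libraries without differences between clones. Changes were planted only in genes with a mean of at least 50, so that run does not cover clone differences or low genes. Floors cover counting error only.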

Additional observations from a re-analysis of the deposited data

Results flagged for a closer look

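Single libraries far from the other 3 of their group were seen in 4 of the 55 groups of 4 in which a member reached more than 10 normalized counts. By the same criterion chance would mark about 1 in 20 groups. *BMP4* in HCT116 KO 47A, at 162 normalized counts, was below the other KO libraries, and KO 47A is the library with the most detected gene identifiers. *BMP4* in HT29 WT 11A was the lowest of 4 at 9149.6. *ID1* in HT29 KO 38B was the highest of 4 at 8527, and *ID2* in SW480 WT 5B the lowest at 8546.

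The KO effect differed between lines, by a test of the difference itself, in 7 instances. Between HCT116 and HT29 these were *BMP4* with -3.15 and *ID2* with -3.39 on the log2 scale. Between SW480 and HT29 they were *ID2* with -5.46 and *SMAD6* with 3.43. Between SW480 and HCT116 they were *BMP4* with 2.35, *BMP7* with -2.62 and *ID1* with 1.30. Each has the sign of the first line minus the second.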

How the results depend on the processing

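The count of changed members in SW480 was 6 in the reported fit and 6 or 7 in the alternatives, with 7 without clone WT 4, where *BMP2* passed. In HCT116 it was 4, ran from 4 to 6 when a library or clone was left out and became 2 with the mean of a clone, which left *BAMBI* (adjusted p = 0.032) and *BMP7* (0.037). In HT29 it was 0 and became 1 in DESeq2, and ran from 0 to 1 when a library or clone was left out, where *BMP4* passed without KO 38B or clone KO 38 and *SMAD6* without clone KO 28. With round as a replicate block the counts were 0, 4 and 6, and no call of a member within a line changed. With the mean of a clone none of the members differed between lines, which gave 0 in each of the 3 comparisons. When a library was left out the count between HCT116 and HT29 ran from 1 to 4, with 1 without KO 44B and 4 without KO 47B of HCT116. The cause was not tested.

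Some log2 values that had not passed changed sign. *BMP2* in HT29 was -0.18 in edgeR and in DESeq2, and *ID3* between HCT116 and HT29 was -0.14 with a pseudocount of 5. Leaving out a library or clone, *BMP2* in HT29 ran from -0.97 to 1.74, *BMPR1A* in HT29 from -0.27 to 0.032, *SMAD6* in HT29 from -0.97 to 0.047, *ID2* in HT29 from -0.37 to 2.74, *SMAD9* in HCT116 from -0.18 to 0.64 and *BMP2* in SW480 from -1.70 to 0.67. Between HCT116 and HT29 *ID1* ran from -0.34 to 0.11 and *ID3* from -0.41 to 0.56, and between SW480 and HT29 *BMPR1A* ran from -0.072 to 0.11. *BMP7* between SW480 and HCT116 kept its size with a pseudocount of 0.1 (-2.62 in both) but did not pass (adjusted p = 0.29). The spread in that test included the HT29 libraries, where *BMP7* was at the floor. With 2 clones per genotype, differences between clones limit what a genotype comparison can show, and low genes (*ID3* and *SMAD9* in HT29) are limited by depth. Of the other pathway genes called in HT29, HCT116 and SW480, 0 of 3, 4 of 7 and 22 of 30 were also called with the mean of a clone. In HT29 the mean of a clone called 0 of all 14921 tested genes. Without KO 38B and KO 47A, 3 of 3 and 6 of 7 were. Direction and side of the threshold were kept in 126, 199 and 208 alternative log2 fold changes of single members within HT29, HCT116 and SW480. Of the rest, 9, 1 and 1 changed sign. In 4, 8 and 1 the alternative passed where the reported fit had not. In HCT116 2 did not pass where the reported fit had.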
